A study of Homo sapiens with 6 samples.

Results

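The conventional myosin II chains followed here are 10 genes: the heavy chains MYH9, MYH10 and MYH14, the regulatory light chains MYL9, MYL12A, MYL12B and MYL5, and the essential light chains MYL6, MYL6B and MYL4. They were taken by gene symbol from a table of 34495 rows, and each symbol had its own row. Myosin II is the motor that pulls actin filaments past one another. Each motor is a pair of heavy chains, and each heavy chain carries a regulatory and an essential light chain on its neck. Phosphorylation of the regulatory chain, by MYLK or by the ROCK kinases, switches the motor on, and the myosin phosphatase switches it off. MYH9 and MYH10 encode the heavy chains of myosin IIA and IIB, which divide cells, stiffen the cell cortex and shape platelet release from megakaryocytes. Inherited changes in MYH9 cause low platelet counts with giant platelets.

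The cells were K562, a human erythroleukemia line that makes some red cell products and can be driven towards megakaryocyte-like features. One group was ARID4B knockout K562, with 3 libraries, and the other was wild type K562, with 3 libraries. ARID4B is a subunit of the SIN3 histone deacetylase complex. All cells grew in the same serum medium with no drug named in the labels, and total RNA was made into strand-specific poly(A) libraries read as paired ends. The source names of the knockout libraries spell the line K565, whereas their titles and the cell line field give K562. How the knockout was made, and whether the 3 libraries are separate clones or cultures, was not stated in the labels. The p-values therefore measure the spread between these libraries, which may be technical. The series title places ARID4B beside the KIT-Src pathway in blood progenitor differentiation, and the comparison asked here is what the knockout did to each myosin II chain.

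Libraries held between 21701404 and 24287385 expected counts in the knockout and between 23959811 and 30346244 in wild type. Levels are given as CPM, a gene's counts scaled to a common library size after trimmed-mean normalisation, and a gene was called changed at an adjusted p under 0.05 in edgeR's quasi-likelihood test over 13696 genes. ARID4B itself had 8.52, 7.22 and 7.68 CPM in the knockout libraries, against 38.4, 41.0 and 40.9 CPM in wild type (log2 fold change -2.36, SE 0.10, edgeR adjusted p = 0.000132). The knockout libraries differed among themselves far more than the wild type libraries did: the chi-square per degree of freedom between pairs was 41.0 to 67.7 in the knockout and 3.05 to 8.12 in wild type, and knockout library 1 was the farthest from the other two.

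All 10 myosin II genes passed the expression minimum. MYH9, MYH14 and MYL9 rose, MYH10 and MYL4 fell, and the other 5 did not pass the test. That is 5 of 10 genes called, where 33.7% of all tested genes were called, 18.3% higher and 15.4% lower, so the share over so few genes is no result about the family. Their median log2 fold change was 0.03, against 0.02 over all tested genes. The libraries of the groups did not overlap for 6 of the 10, 4 higher and 2 lower in the knockout, where 52.3% of all tested genes did not overlap, 26.6% higher and 25.7% lower. MYL9 reached the minimum of 0.415 CPM in 3 knockout and 2 wild type libraries, and the other 9 genes reached it in all 6. In whole-culture RNA such as this, fewer cells that express a gene and less RNA per cell cannot be told apart.

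**Figure D1:**
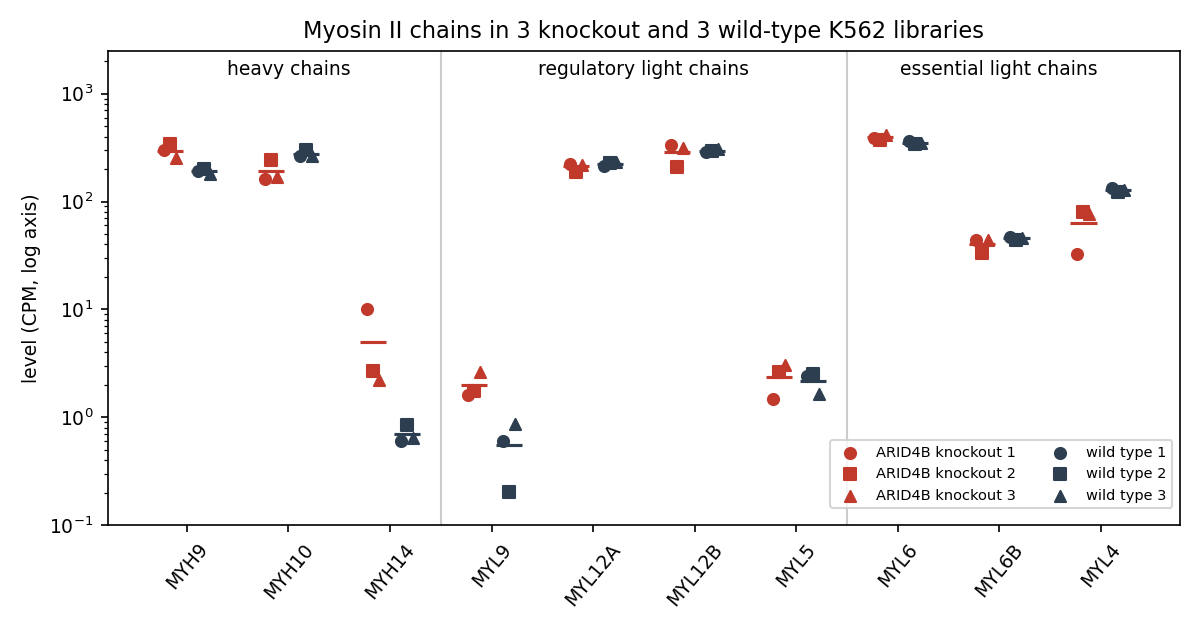
Level of each myosin II chain in CPM on a log axis, with 1 point per library and a bar at the mean of 3; ARID4B knockout stands left of wild type. MYH9 and MYH10 change places: the knockout means were 297 and 190 CPM, against 191 and 278 CPM in wild type.

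The 3 heavy chains changed in opposite directions. Promoter sequences of the 3 heavy chain genes, 250 bases before to 50 after the start of transcription, are printed here from RefSeq (GRCh38.p14) to show what these diverging genes carry at their starts. They lie at chr22:36387918-36388217 on the minus strand for MYH9, chr17:8630676-8630975 on the minus strand for MYH10 and chr19:50203372-50203671 on the plus strand for MYH14. Capitals mark CCAAT or its complement ATTGG, and the GC box GGGCGG or its complement CCGCCC.
MYH9: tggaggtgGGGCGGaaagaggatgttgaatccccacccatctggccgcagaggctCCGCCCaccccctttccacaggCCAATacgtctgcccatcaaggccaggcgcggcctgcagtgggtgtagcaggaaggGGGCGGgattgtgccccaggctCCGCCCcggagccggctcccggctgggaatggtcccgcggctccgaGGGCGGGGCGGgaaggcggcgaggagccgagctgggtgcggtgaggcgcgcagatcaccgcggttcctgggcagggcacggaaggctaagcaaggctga
MYH10: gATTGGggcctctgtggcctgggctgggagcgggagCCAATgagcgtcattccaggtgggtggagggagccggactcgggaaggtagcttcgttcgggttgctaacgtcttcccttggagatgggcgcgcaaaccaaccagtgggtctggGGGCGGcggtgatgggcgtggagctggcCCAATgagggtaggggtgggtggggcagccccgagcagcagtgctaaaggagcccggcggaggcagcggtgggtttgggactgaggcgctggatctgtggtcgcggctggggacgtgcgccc
MYH14: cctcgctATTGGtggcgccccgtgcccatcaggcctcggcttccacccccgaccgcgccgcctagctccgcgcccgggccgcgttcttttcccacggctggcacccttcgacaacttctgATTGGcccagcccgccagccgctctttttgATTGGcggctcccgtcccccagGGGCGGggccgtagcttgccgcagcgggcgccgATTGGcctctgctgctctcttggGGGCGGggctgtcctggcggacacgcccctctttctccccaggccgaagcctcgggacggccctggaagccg
MYH9 held 1 CCAAT box and 6 GC boxes, MYH10 held 3 and 1, and MYH14 held 4 and 2, counting both strands and overlapping matches. None of the 3 windows held a CArG box or GATAA. Of 35116 promoter windows of the same length, 34.6% held a CCAAT box, 45.0% a GC box, 1.3% a CArG box and 22.7% GATAA. A match is only a run of letters, and no binding was measured. Of the 10 genes, 8 matched the promoter table with 12 windows, and MYL4 and MYL9 did not.

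MYH9 (chr22:36677323-36784063, hg19), the heavy chain of myosin IIA, had 300, 340 and 251 CPM in the knockout libraries, against 191, 202 and 179 CPM in wild type. Every knockout library stood above every wild type library, with means of 297 ± 44.6 and 191 ± 11.4 CPM (SD, n = 3 each). The log2 fold change was 0.64 (SE 0.12, edgeR adjusted p = 0.00787), a 1.56-fold rise. This call held in all 16 alternatives, with adjusted p between 2.11e-05 and 0.0487.

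MYH10 (chr17:8377523-8534079, hg19), the heavy chain of myosin IIB, had 162, 241 and 168 CPM in the knockout libraries, against 267, 302 and 264 CPM in wild type. Knockout library 2 lay close to the wild type range, and libraries 1 and 3 lay well below it. The means were 190 ± 43.9 CPM in the knockout and 278 ± 21.1 CPM in wild type (SD, n = 3 each), a log2 fold change of -0.55 (SE 0.16, edgeR adjusted p = 0.0377). The call ended with upper quartile scaling (adjusted p = 0.0626), with library totals (0.0741), without any 1 wild type library (0.0898 to 0.126), without knockout library 1 (0.0631) and without knockout library 3 (0.0789).

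MYH14 (chr19:50706885-50813801, hg19), the heavy chain of myosin IIC, was the rarest of the 3. It had 10.2, 2.68 and 2.22 CPM in the knockout libraries, against 0.601, 0.854 and 0.649 CPM in wild type. These rest on 261, 60 and 53 counts in the knockout and 16, 25 and 15 in wild type. All knockout libraries were above wild type, and library 1 alone set much of the mean of 5.03 ± 4.48 CPM, against 0.701 ± 0.135 CPM in wild type (SD, n = 3 each). The log2 fold change was 2.83 (SE 0.65, edgeR adjusted p = 0.0173), and 1.79 without knockout library 1, still called. With limma-voom the adjusted p was 0.0569, and without any 1 wild type library it was 0.064 to 0.0782.

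Set against each other within a library, the heavy chains give a ratio that no scaling can move. MYH10 made up 34.3%, 41.2% and 39.9% of the heavy chain counts in the knockout libraries, against 58.2%, 59.8% and 59.5% in wild type. The means were 38.5 ± 3.69% in the knockout and 59.2 ± 0.856% in wild type (SD, n = 3 each), a difference of -20.7 percentage points. The groups did not overlap, and the two-sided exact permutation test gave p = 0.1, the smallest that 3 against 3 libraries allow. MYH9 counts per MYH10 count were 1.86, 1.41 and 1.49 in the knockout, against 0.716, 0.669 and 0.679 in wild type, so the more counted heavy chain was MYH9 in every knockout library and MYH10 in every wild type library. The summed heavy chain level was 492 ± 83.0 CPM in the knockout and 469 ± 31.8 CPM in wild type (SD, n = 3 each), and the libraries overlapped (exact permutation p = 0.8).

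**Figure D2:**
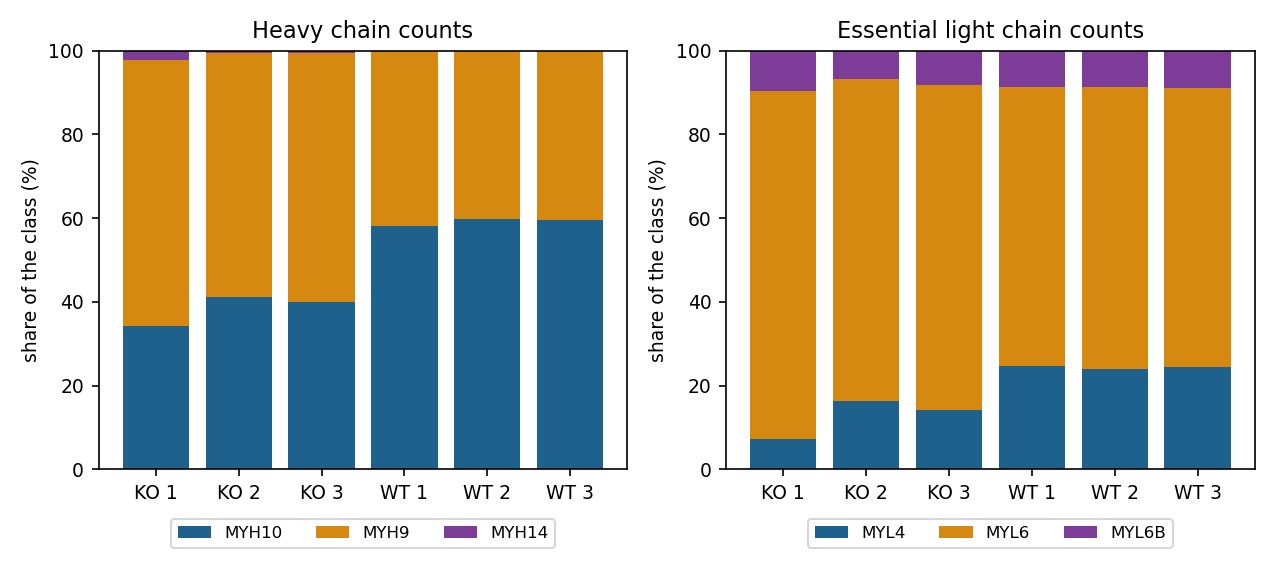
Share of each heavy chain (left) and each essential light chain (right) in its class, in percent of counts, with 1 stacked bar per library, ARID4B knockout before wild type. MYH10 takes 34.3 to 41.2% in the knockout and 58.2 to 59.8% in wild type, and MYL4 takes 7.11 to 16.4% in the knockout and 24.0 to 24.6% in wild type.

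The regulatory light chains carry the residues that kinases phosphorylate. The starts of the coding sequences of MYL9, MYL12A and MYL12B are shown because these genes are so alike that reads of a pair of them could be mixed. They lie at chr20:36544885-36544953, chr18:3253248-3253313 and chr18:3272899-3272967 in that order, on the plus strand of GRCh38, each within a single exon. Capitals mark the neighbouring threonine and serine codons that MYLK and ROCK phosphorylate.
MYL9: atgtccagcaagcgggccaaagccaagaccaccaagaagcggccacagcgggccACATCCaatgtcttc
MYL12A: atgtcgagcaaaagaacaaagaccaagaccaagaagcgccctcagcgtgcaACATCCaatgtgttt
MYL12B: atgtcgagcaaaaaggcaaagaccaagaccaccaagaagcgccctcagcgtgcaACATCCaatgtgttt
The marked codons are the same in all 3. MYL12A and MYL12B were 95.7% identical over 516 aligned coding bases, 22 of which differed, and 74 of the 467 windows of 50 bases in MYL12A also occurred in MYL12B. No other pair within a class shared such a window. Counts of MYL12A and MYL12B are therefore given with their sum as well.

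MYL12A (chr18:3247528-3256234, hg19), a main regulatory light chain of non-muscle cells, had 225, 190 and 220 CPM in the knockout libraries, against 213, 228 and 231 CPM in wild type. Its log2 fold change was -0.08 (95% interval -0.28 to 0.12, edgeR adjusted p = 0.492). MYL12B (chr18:3262111-3278282, hg19), its near-copy on the same chromosome, had 335, 207 and 315 CPM in the knockout, against 289, 292 and 308 CPM in wild type. The groups overlapped for both, and knockout library 2 was the lowest of the 6 libraries for both.

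The MYL12B log2 fold change was -0.05 (95% interval -0.46 to 0.36, edgeR adjusted p = 0.843). Neither of these 2 genes has a settled direction, since both signs turn with upper quartile scaling and with library totals. The sum of the pair was 560, 397 and 535 CPM in the knockout, against 502, 519 and 539 CPM in wild type (log2 fold change -0.06, 95% interval -0.37 to 0.24, edgeR adjusted p = 0.733). Such an interval leaves room for a change of the sum in either direction.

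MYL9 (chr20:35169887-35178226, hg19), the regulatory light chain best known from smooth muscle and platelets, had 1.60, 1.74 and 2.64 CPM in the knockout libraries, against 0.601, 0.205 and 0.865 CPM in wild type. The counts behind these were 41, 39 and 63 in the knockout and 16, 6 and 20 in wild type. All knockout libraries were above all wild type libraries, at 2.00 ± 0.566 CPM and 0.557 ± 0.332 CPM (SD, n = 3 each). The log2 fold change was 1.85 (SE 0.52, edgeR adjusted p = 0.0342). The call ended with no expression filter (adjusted p = 0.0505), without any 1 wild type library (0.0578 to 0.115), without knockout library 2 (0.0516) and without knockout library 3 (0.0755).

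MYL9 stayed a small part of its class. It held 0.284%, 0.434% and 0.489% of the regulatory light chain counts in the knockout libraries, against 0.119%, 0.0393% and 0.160% in wild type, with a two-sided exact permutation p of 0.1, the smallest possible. MYL5 (chr4:667369-675817, hg19), another regulatory light chain gene, was also low. It had 1.49, 2.63 and 3.02 CPM in the knockout, against 2.44, 2.49 and 1.64 CPM in wild type, with the groups overlapping (log2 fold change 0.11, 95% interval -0.71 to 0.93, edgeR adjusted p = 0.827). Its direction turned without knockout library 3 or wild type library 3. Per kilobase MYL5 stood above MYL9, at 3.57 and 1.04 CPM in the knockout and 3.29 and 0.290 CPM in wild type, with no overlap between the genes in either group. The summed regulatory light chain level was 502 ± 87.9 CPM in the knockout and 523 ± 18.6 CPM in wild type (SD, n = 3 each, exact permutation p = 0.9).

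Among the essential light chains, which brace the neck of the motor, MYL4 fell and the others did not pass the test. MYL4 (chr17:45286428-45301045, hg19), the essential chain of atrial and embryonic muscle, had 32.9, 79.7 and 76.0 CPM in the knockout libraries, against 134, 122 and 128 CPM in wild type. All knockout libraries were below wild type, library 1 the lowest. The means were 62.9 ± 26.0 CPM in the knockout and 128 ± 6.37 CPM in wild type (SD, n = 3 each), a log2 fold change of -1.02 (SE 0.31, edgeR adjusted p = 0.0408). The call ended with upper quartile scaling (adjusted p = 0.0535), with library totals (0.0545) and without any 1 wild type library (0.101 to 0.12).

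MYL6 (chr12:56552045-56555366, hg19), the main essential light chain outside muscle, had 386, 374 and 418 CPM in the knockout libraries, against 364, 340 and 347 CPM in wild type. The groups did not overlap, but the gene did not pass the test (log2 fold change 0.16, SE 0.07, edgeR adjusted p = 0.102). It was called higher with upper quartile scaling (adjusted p = 0.0322) and with library totals (0.0195), and after subtracting the median change of the 50 tested genes on each side its log2 fold change was -0.004. MYL6B (chr12:56546204-56551771, hg19), which lies next to MYL6 and encodes a related essential chain, had 44.2, 33.4 and 44.3 CPM in the knockout, against 47.1, 44.0 and 46.0 CPM in wild type. Knockout libraries 1 and 3 lay within the wild type range and library 2 lay below it (log2 fold change -0.17, 95% interval -0.46 to 0.12, edgeR adjusted p = 0.316). With the offset by neighbouring genes MYL6B was called lower, at -0.35 with an adjusted p of 0.024.

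MYL4 supplied 7.11%, 16.4% and 14.1% of the essential light chain counts in the knockout libraries, against 24.6%, 24.0% and 24.5% in wild type. The means were 12.5 ± 4.83% in the knockout and 24.4 ± 0.317% in wild type (SD, n = 3 each), a difference of -11.8 percentage points with a two-sided exact permutation p of 0.1, the smallest possible. MYL6 took 83.4%, 76.8% and 77.7% in the knockout and 66.8%, 67.3% and 66.6% in wild type. The summed essential light chain level was 496 ± 38.2 CPM in the knockout and 524 ± 20.2 CPM in wild type (SD, n = 3 each, exact permutation p = 0.3).

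**Figure D3:**
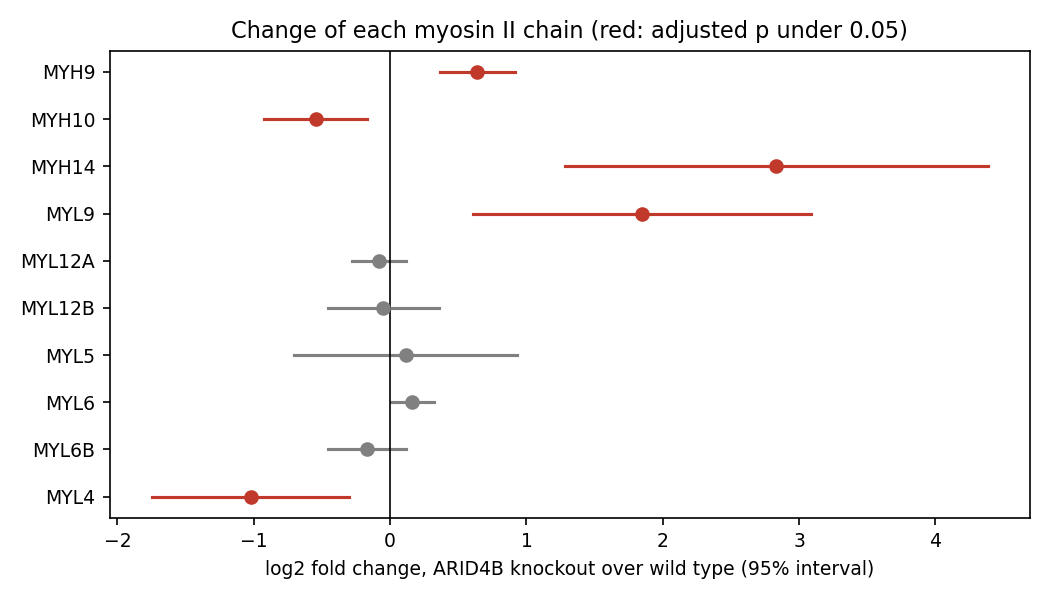
Log2 fold change of each myosin II chain, ARID4B knockout over wild type, with its 95% interval; red marks an edgeR adjusted p under 0.05. MYH9, MYH14 and MYL9 lie above 0 and MYH10 and MYL4 below it, and the intervals of MYH14 and MYL9 are the widest of the 5 that were called.

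Between genes, levels were compared per kilobase of transcript, by the median length of each gene's transcripts. For MYL9 these were 1024 and 2821 bases long, so its level on this scale is uncertain. MYL6 was the highest chain in both groups, at 504.6 CPM per kilobase in the knockout and 450 CPM per kilobase in wild type, followed by MYL12B and MYL12A. In wild type the order went on with MYL4, MYL6B, MYH10, MYH9, MYL5, MYL9 and MYH14, and of the neighbours in that order the last pair overlapped between libraries. In the knockout MYL4 came next, then MYH9, MYL6B, MYH10, MYL5, MYL9 and MYH14. There the ranges overlapped for MYL12B with MYL12A, MYL4 with MYH9, MYH9 with MYL6B, and MYL9 with MYH14. MYH9 stood at 39.3 CPM per kilobase in the knockout and 25.3 in wild type, and MYH10 at 24.7 in the knockout and 36.1 in wild type.

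Each knockout library was also set beside the genes around each chain, since K562 carries many copy number changes. For MYL4 the log2 differences from the wild type mean were -1.95, -0.68 and -0.75 in knockout libraries 1, 2 and 3, whereas its neighbours had medians of 0.28, 0.21 and 0.21. MYH9 differed by 0.65, 0.84 and 0.40, and its neighbours by 0.08, 0.11 and 0.13. For MYH10 the values were -0.78, -0.20 and -0.72, with neighbour medians of -0.002, -0.06 and -0.07. For these 3 genes, and for MYH14, MYL9 and MYL5, the neighbours moved less than the gene in every knockout library. In knockout library 1 the neighbours moved more than the gene for MYL12A (0.19 against 0.01), MYL12B (0.21 against 0.18), MYL6 (0.24 against 0.14) and MYL6B (0.24 against -0.05). The same held in knockout library 3 for MYL12A (-0.047 against -0.023) and MYL6B (0.201 against -0.046). MYL12B and its neighbours both stood at their lowest in knockout library 2, at -0.52 and -0.20. A median over so many neighbours cannot show a change of a short stretch, and copy number was not tested.

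**Figure D4:**
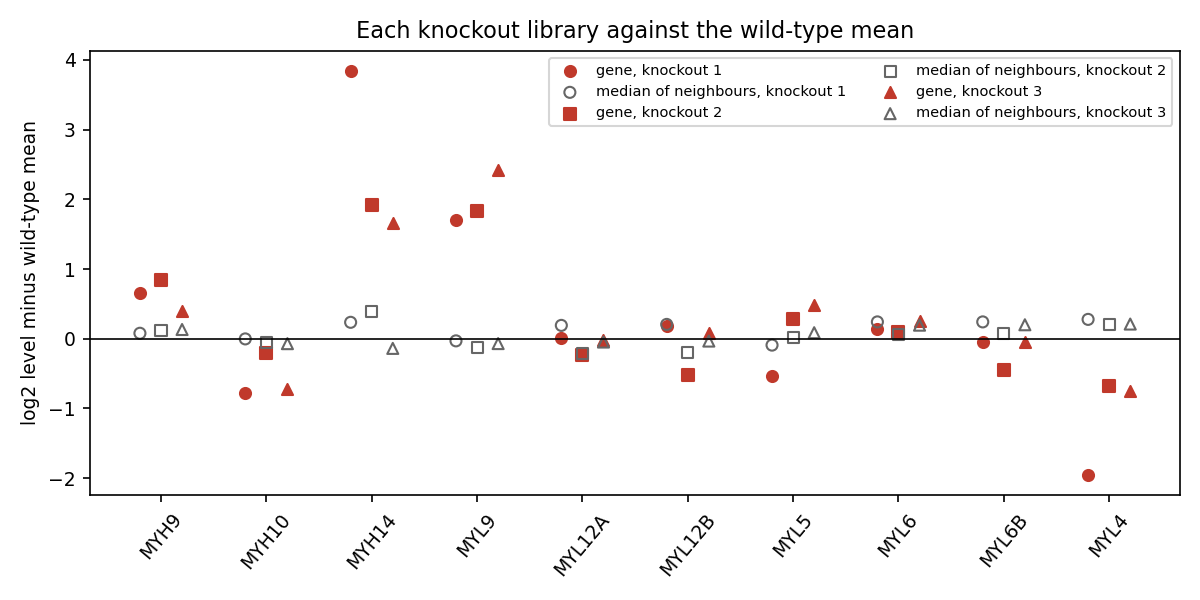
Log2 level of each chain in each ARID4B knockout library minus the wild type mean (filled), beside the median of its 50 tested neighbours on each side (open). MYH14 reaches 3.84 in knockout library 1 and MYL4 falls to -1.95 in the same library, while the neighbour medians stay between -0.22 and 0.39.

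Genes whose levels ran most like those of a chain were found by the root mean square difference of centred log2 levels over the 6 libraries, among 10180 or 10181 genes with at least 5 CPM. For MYH10 the nearest were the tyrosine kinase gene SYK at 0.056, ZNF138 at 0.059 and the kinase gene AKT2 at 0.066. For MYL4 they were the mucin gene MUC1 at 0.094, CAPRIN2 at 0.113 and the caveolin gene CAV2 at 0.125. MYL9, which has few counts, had no match as near: its closest genes with a symbol were PARP11 at 0.479 and PROCR at 0.515, after a transcript row with no gene symbol at 0.470.

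The genes that switch myosin II on rose in several places. Of 14 tested kinases of the regulatory light chain, 8 rose and 6 did not pass, with a median log2 fold change of 0.41, where 18.3% of all tested genes were called higher. MYLK, the dedicated myosin light chain kinase, had 15.7, 8.79 and 0.965 CPM in the knockout libraries, against 0.113, 0.171 and 0.216 CPM in wild type (log2 fold change 5.64, SE 1.07, edgeR adjusted p = 0.00878). Every wild type library lay below the expression minimum of 0.415 CPM. MYLK therefore entered the test, and the count of 8, only through the knockout. Its knockout libraries spread widely, with library 3 far below library 1 and a log2 fold change of 4.84 without library 1, and the call ended with limma-voom (adjusted p = 0.122) and without wild type library 1 (0.0504). DAPK1, a death-associated kinase that also acts on the light chain, had 69.1, 38.6 and 54.6 CPM in the knockout, against 25.2, 27.6 and 24.8 CPM in wild type (log2 fold change 1.07, edgeR adjusted p = 0.00887), and DAPK2 rose by 1.48 (adjusted p = 0.0362). DAPK2 was lost in 7 of the 16 alternatives. Without any 1 wild type library the list had 3 to 5 genes called higher. Calls higher over all tested genes then fell too, to between 1156 and 1243, against 2512 with all 6 libraries.

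The myosin phosphatase list mixes genes of the enzyme's subunits with the inhibitor genes PPP1R14A, PPP1R14B and PPP1R14C. No subunit gene was called. Of the 7 tested genes of the list, 1 fell and 6 did not pass, with a median log2 fold change of 0.15. That is 14.3% called lower, near the 15.4% of all tested genes. Without knockout library 3, 3 of them were called higher, and 2921 over all tested genes, against 2512 with all 6 libraries. The gene that fell was PPP1R14B, which encodes an inhibitor of protein phosphatase 1, with 149, 161 and 152 CPM in the knockout libraries, against 224, 209 and 209 CPM in wild type (log2 fold change -0.47, SE 0.07, edgeR adjusted p = 0.00339). Of 9 tested genes of the small GTPase input to myosin, 4 rose, 1 fell and 4 did not pass, with a median of 0.40, beside 18.3% higher and 15.4% lower over all tested genes. RHOC, a small GTPase, had 229, 258 and 289 CPM in the knockout, against 167, 161 and 160 CPM in wild type (log2 fold change 0.67, edgeR adjusted p = 0.00347). ARHGEF2, a GTPase exchange factor, rose by 0.56 (adjusted p = 0.00435). RHOB rose by 3.65 (adjusted p = 0.0116), with 14.1, 3.17 and 2.77 CPM in the knockout against 0.451, 0.410 and 0.736 CPM in wild type, and was not called without wild type library 1 or 2. Without knockout library 1 its log2 fold change was 2.48. ECT2, the exchange factor of dividing cells, had a log2 fold change of -0.34 (adjusted p = 0.0418), a fall that was lost in 7 alternatives. Without any 1 wild type library the GTPase list had 2 or 3 genes called higher, and all tested genes 1156 to 1243.

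Of 20 tested actin filament partners, 9 rose, 1 fell and 10 did not pass, with a median log2 fold change of 0.30, where 18.3% of all tested genes were called higher and 15.4% lower. TPM4, a tropomyosin that coats actin filaments, had 142, 148 and 133 CPM in the knockout libraries, against 35.7, 36.6 and 38.4 CPM in wild type (log2 fold change 1.93, SE 0.07, edgeR adjusted p = 9.42e-05), and held in all 16 alternatives. ACTA2, the smooth muscle actin, was low, at 0.664, 0.446 and 4.53 CPM in the knockout against 0.150, 0.103 and 0.0433 CPM in wild type (log2 fold change 4.16, adjusted p = 0.027), and was lost in 5 alternatives. Knockout library 3 set much of that value, which was 2.403 without it. ACTA2 and SVIL, both among the 9, lay below the expression minimum of 0.415 CPM in every wild type library. These genes entered the test only through the knockout. TPM2 rose by 1.07 (adjusted p = 0.0314), and ACTB, the main cytoplasmic actin, fell, with a log2 fold change of -0.26 (adjusted p = 0.0263); each was lost in 6. Without any 1 wild type library this list had 2 or 3 called higher, and all tested genes 1156 to 1243, against 2512 with all 6 libraries.

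Of 7 tested genes of the SRF group, the factor that drives many actin and myosin genes, 2 rose and 5 did not pass, with a median of 0.19; 18.3% of all tested genes were called higher and 33.7% in either direction. ZYX, a protein of adhesion sites and stress fibres, had 286, 222 and 226 CPM in the knockout libraries, against 107, 108 and 102 CPM in wild type (log2 fold change 1.21, edgeR adjusted p = 0.00122). VCL, the adhesion protein vinculin, had 504, 459 and 443 CPM in the knockout, against 330, 337 and 322 CPM in wild type (log2 fold change 0.51, edgeR adjusted p = 0.00325). Both held in all 16 alternatives.

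**Figure D5:**
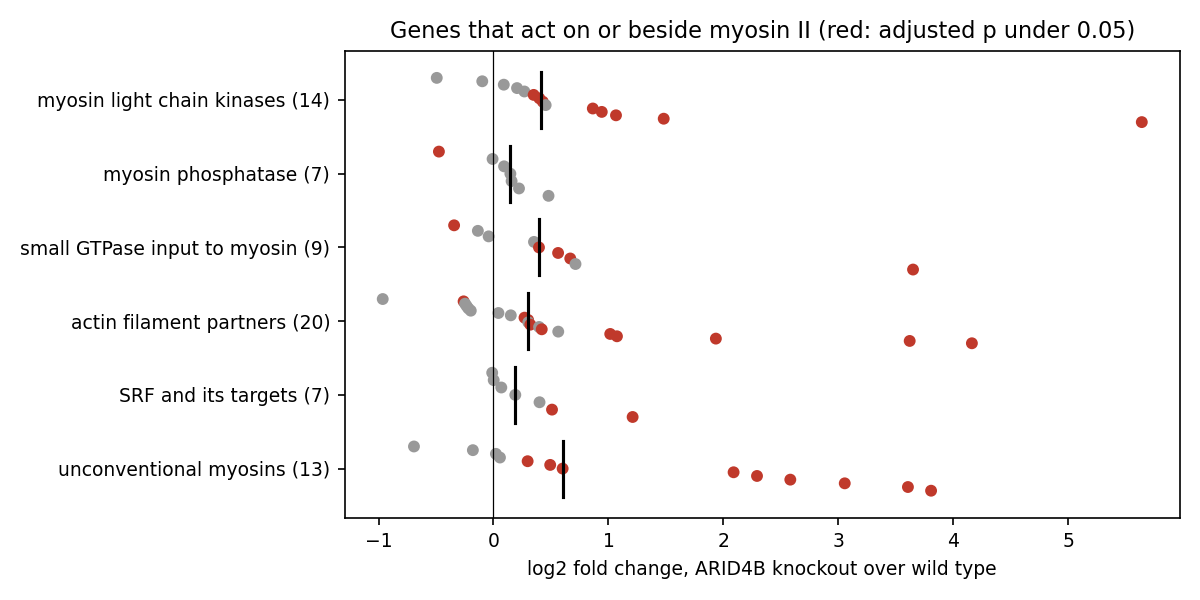
Log2 fold change (ARID4B knockout over wild type) of each tested gene in 6 lists around myosin II, with a black bar at the list's median and red for an edgeR adjusted p under 0.05; the number tested stands in brackets. Called genes lie mostly right of 0, with 8 of 14 kinases and 9 of 20 actin partners higher. Some of these, MYLK and ACTA2 among them, lay below the expression minimum in every wild type library. The phosphatase list has 1 called gene, which is lower and encodes an inhibitor of the phosphatase.

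Markers of other blood and tissue cells moved beside these genes, and their part in the results was not tested. Megakaryocyte markers summed to 125 to 230 CPM in the knockout libraries and 39.6 to 41.4 CPM in wild type. Of these 12 markers, 11 were in the table, 5 were tested and 3 rose, where 18.3% of all tested genes were called higher. ITGB3 had 20.3, 26.7 and 13.1 CPM in the knockout, against 0.563, 0.820 and 0.649 CPM in wild type. PF4, PPBP, GP9 and VWF were at 0 in all wild type libraries. Erythroid markers summed to 952 to 1762 CPM in the knockout and 1369 to 1403 CPM in wild type, with 2 of 10 higher, 1 lower and 7 not called. That is 30% called, near the 33.7% of all tested genes called in either direction.

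Fibroblast and smooth muscle markers summed to 74.8 to 270 CPM in the knockout and 45.2 to 47.9 CPM in wild type. Of 5 tested, 3 were higher and 1 lower, where 18.3% of all tested genes were called higher and 15.4% lower. COL1A2, a collagen chain, carried most of the sum in knockout libraries 2 and 3, with 14.7, 201 and 230 CPM in the knockout, against 8.56, 8.99 and 7.92 CPM in wild type. DES, the muscle filament desmin, was the gene that fell, with 0.391, 1.87 and 2.31 CPM in the knockout, against 9.72, 9.74 and 10.0 CPM in wild type. PDGFRB and DCN overlapped between the groups, and LUM had at most 0.0446 CPM in any library. Striated muscle markers summed to 40.0 to 108 CPM in the knockout and 18.2 to 21.8 CPM in wild type, with 1 of 1 tested higher. That gene, TNNI3, a troponin, made up most of the sum, with 49.7, 85.5 and 39.5 CPM in the knockout, against 21.6, 18.3 and 18.0 CPM in wild type, and TTN added 21.72 CPM in knockout library 2. NPPA was at 0 in all wild type libraries and in knockout libraries 1 and 3. Macrophage markers summed to 14.8 to 52.2 CPM in the knockout and 20.6 to 21.3 CPM in wild type, with MARCO and CD163 at 0 throughout, and T cell markers to 4.06 to 14.8 CPM in the knockout and 3.90 to 4.02 CPM in wild type. In each of these last 2 lists 1 gene was tested, and it did not pass.

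The authors' deposited table of 3153 genes lists 4 of the 10 chains. It gives log2 fold changes of 0.89 for MYH9 (adjusted p = 0.0943), 2.68 for MYH14 (0.139), 2.15 for MYL9 (0.121) and -0.86 for MYL4 (0.0894), all in the directions found here, and -2.10 for ARID4B (0.0354). None of these 4 chains was under 0.05 there, and MYH10 was not listed. The authors' comparison comes from the same series, so the shared directions are not independent of the results here.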

How the data were processed

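RNA of 3 ARID4B knockout and 3 wild type K562 libraries was measured by stranded RNA-seq. The authors deposited expected counts per gene from RSEM 1.2.14 after STAR 2.4, on hg19, per the submitters' processing notes. They also deposited a table of their comparison with log2 fold changes and p-values. Starts in the count table count from 0, so 1 was added, and 27 symbols that a spreadsheet had turned into dates were restored. Expected counts were rounded and tested with edgeR 4.0.16 in R 4.3.3: trimmed-mean factors, the default filter (minimum count 10), the quasi-likelihood F test and Benjamini-Hochberg adjustment over 13696 genes, called under 0.05. The fit was tested on simulated data; the bound set for the share of changed genes recovered was missed at first and then lowered, with the fit unchanged. Totals of 21701404 to 30346244 limit the precision of MYL9, MYL5 and MYH14. Shares used a two-sided exact permutation test. Levels per kilobase used the median length of each row's transcripts in GENCODE v29. Alternatives used other scalings, no filter, limma 3.58.1, DESeq2 1.42.0, a neighbour offset and each library left out. Sequences were compared with Biopython 1.88. Named are the 10 chains, ARID4B, up to 3 called list genes in each direction by fold change with at least 1 CPM, and the 3 genes nearest to MYL4, MYL9 and MYH10. Some marker genes are not reported here. The genes and lists were chosen with earlier results of these data known. Markers, individual chains and list genes singled out beyond this rule were chosen after their values were seen.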

Additional observations from a re-analysis of the deposited data

How the results depend on the processing

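The number of called genes was 4619 over all genes, and 2097 to 5456 when 1 library was left out; without a wild type library it was 2349, 2097 and 2178 for libraries 1, 2 and 3. With 1 library left out, the chains called higher numbered 1 to 3 and those called lower 0 to 2. With upper quartile scaling and with library totals edgeR called 0 chains lower, with 2 at an unadjusted p under 0.05, and DESeq2 called 2. Library totals moved the split of calls to 3120 higher and 1283 lower (70.9% higher, against 54.4%) and the median log2 fold change of all genes to 0.14, against 0.02, and upper quartile scaling gave 67% higher. Directions turned for MYL12A at 0.005 with upper quartile scaling and 0.032 with library totals, and for MYL12B at 0.034 and 0.062 with the same scalings; with 1 library left out MYL12B ran from -0.183 to 0.128, above 0 without knockout library 2. They also turned for MYL6 at -0.004 with the neighbour offset, and for MYL5, which ran from -0.11 without knockout library 3 to 0.361 without knockout library 1 and was -0.069 without wild type library 3. None of these values passed the threshold, and the cause was not tested. The replicate block gave 5 kinases, 4 actin partners and 7 unconventional myosins called higher, against 8, 9 and 9; without a filter 6 unconventional myosins were called, and limma-voom called 6 actin partners. The 3 shares kept their direction in every alternative run. Of 430 values for single genes, 361 kept their direction and side of the threshold, 58 lost the call, 3 gained it and 8 changed direction. Of 224 counts over lists, 184 stayed within 1.5 times, 26 were lower and 14 higher than that. Same-numbered libraries share only a number: their deviations correlated at 0.013, 0.03 and -0.002, and a replicate block called 3449 genes, with 3 chains higher and 2 lower. A low count limits MYL9, MYL5 and MYH14.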

Other observations

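Myosins outside these 10 chains were also looked at. Of 13 tested unconventional myosins, motors that carry cargo or tether membranes, 9 rose and 4 did not pass. The list's median log2 fold change was 0.60, and 18.3% of all tested genes were called higher. MYO1A and MYO7A, both among the 9, lay below the expression minimum of 0.415 CPM in every wild type library. They entered the test only through the knockout, so the count of 9 depends in part on the filter. MYO3B, a class III myosin, had 28.7, 11.1 and 19.3 CPM in the knockout libraries, against 2.06, 2.56 and 2.47 CPM in wild type (log2 fold change 3.06, edgeR adjusted p = 0.00233). MYO1F, a class I myosin of blood cells, had 5.43, 1.65 and 2.94 CPM in the knockout, against 0.638, 0.547 and 0.476 CPM in wild type (log2 fold change 2.58, edgeR adjusted p = 0.00851). MYO5B, a vesicle motor, had 1.88, 2.94 and 1.26 CPM in the knockout, against 0.451, 0.308 and 0.476 CPM in wild type (log2 fold change 2.29, edgeR adjusted p = 0.00804), and was not called without wild type library 2 (adjusted p = 0.0517). Without any 1 wild type library the list had 4 or 5 genes called higher, and all tested genes 1156 to 1243, against 2512 with all 6 libraries.

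A list of 17 muscle myosin II chains, which leaves out MYL4, was nearly silent, with 57 to 133 counts per library in the knockout and 20 to 33 in wild type. Of these chains 1 reached the expression minimum, and it did not pass edgeR's test. Other fits called some higher: 1 of 15 by edgeR with no filter, 1 of 3 without any 1 wild type library, 1 of 2 without knockout library 1 or 3, and 2 of 5 by DESeq2. MYL1 and MYL10 had 0 counts in all 6 libraries, and 10 of the 17 had 0 in all wild type libraries. MYH6, the atrial heavy chain, had 8, 14 and 11 counts in the knockout libraries and 0 in each wild type library, at least 12.1-fold higher when wild type is set to 3 counts in all. MYH7B had 80, 17 and 6 counts in the knockout, against 4, 0 and 7 in wild type, most of them in knockout library 1. MYH6 and MYH7B were singled out after their values were seen, and neither reached the expression minimum of the test.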
